A study of Mus musculus with 30 samples.

Results

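Histone genes were followed in the RNA of mouse sperm, in all features of the sperm tables whose symbol starts with Hist, a cluster number and h, or with H2af, H3f or H1f. The table of polyadenylated RNA held 44 such genes among 16242 features, and the table of total RNA held 4 among 3082: Hist2h2aa1, H1fnt, H2afb1 and H2afy2. All 4 were in both tables. Of the 44 genes, 30 have Hist symbols, called replication-dependent below, and 14 are variant genes, of which the pseudogene H3f3a-ps2 was not tested. The class name rests on the symbol. Among the 30, the 5 genes Hist1h1c, Hist1h2bc, Hist2h2be, Hist3h2a and Hist4h4 are known also as polyadenylated mRNA.

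Histones pack DNA: H2A, H2B, H3 and H4 form the core that DNA is wound around, and H1 binds the DNA between cores. Replication-dependent histone genes lie in clusters and are mostly transcribed in S phase into mRNAs that end in a stem-loop instead of a poly(A) tail, while variant histone genes lie elsewhere and are transcribed into polyadenylated mRNA in dividing and resting cells alike. In spermatids most histones are replaced by transition proteins and then by protamines, and some histones, such as the linker histone H1fnt and the H2A variant H2afb1, are made mainly in the testis.

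C57Bl/6J males aged 3 months received intraperitoneal tesaglitazar, a dual agonist of the nuclear receptors PPARα and PPARγ, at 10 µg per kg of body weight (TESA), or vehicle, DMSO in saline (CTRL), on 2 days a week for 4 weeks. Sperm from the cauda epididymis was taken 46 days after the last injection for rRNA-depleted total RNA (7 TESA and 7 CTRL libraries) and 24 h after it for polyA-selected RNA (4 TESA and 4 CTRL libraries). Sperm swam out into medium, and somatic cells were then lysed. The labels do not say which animals a library came from, so p-values measure the spread between libraries.

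The libraries at 46 days held 4538101 to 13513801 counts, but few of them fell on histone genes: 15 counts in TESA library KG8-02, 1327 in CTRL library KG8-14 and a median of 130.5 over the 14 libraries. Ribosomal RNA (Rn18s-rs5) was the most abundant feature in every total RNA library but KG8-14, at 30.6% to 74.8% of all counts, and mRNAs and lincRNAs held 20.4% to 56.2%. Within these, the 5 most abundant features took 26.7% of the mRNA and lincRNA counts in KG8-14 and 97.2% in KG8-02. The libraries at 24 h held 15337517 to 27709918 counts, of which 4212 to 19983 were on histone genes. In the total RNA libraries none of the 4 genes exceeded 20 counts everywhere, so their values there carry a large counting error. No library repeated another within sampling noise.

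Sperm markers were present in both tables, with all 12 late spermatid and sperm genes listed. Their summed level was 427 to 1031 CPM (counts relative to the library size, with sizes scaled by TMM over all features of a table) at 46 days, where protamine 2 (Prm2) led, and 3977 to 12839 CPM at 24 h, where the outer dense fibre gene Odf1 led. No leukocyte, epididymal or erythroid marker was listed at 46 days, in a table that holds only features above 20 counts in at least 3 libraries. At 24 h all 12 leukocyte markers were listed, at 1216 to 2590 CPM in sum, led by Cd52, which epididymal epithelium also makes; without Cd52 the sum was at most 314 CPM. Also at 24 h, 6 of 12 epididymal markers, led by Crisp1, summed to 590 to 2044 CPM, and 4 of 7 erythroid markers, led by Hba-a2, to 53.5 to 270 CPM. Of 10 spermatocyte markers 3 were listed at 24 h, led by Rec8, at 12.1 to 22.1 CPM in sum, and Rec8 alone was listed at 46 days, at 0 to 4.21 CPM. The part of these other cells in the histone values was not tested, and in such bulk samples fewer cells of a type and less RNA per cell cannot be told apart.

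The polyA and total RNA libraries were compared in CTRL animals first, on a common scale made from the mRNAs and lincRNAs present in both tables. Hist2h2aa1, a replication-dependent gene for a core H2A, stood at 245, 232, 362 and 263 CPM in polyA libraries ai_2, ai_4, ai_6 and ai_8, and at 22.3, 29.96 and 35.6 CPM (lowest, median, highest) in the 7 total RNA libraries. The groups did not overlap, as in 55.6% of the 2360 features tested, and each polyA library lay above each total RNA library. Its log2 difference was 3.17 (SE 0.17, adjusted p = 1.3e-08), and 5.38% of the features tested had a larger one; scaled by library totals alone it was 0.82 (adjusted p = 0.0027).

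The variant genes stood closer together. H2afb1, whose short H2A protein is found in testis, was at 102, 22.8, 60.6 and 62.9 CPM in the polyA libraries and at 17.8, 23.5 and 25.6 CPM in total RNA. In library ai_4 it lay within the total RNA range, and in the other polyA libraries above it, with a log2 difference of 1.44 (SE 0.31, adjusted p = 0.00093). H1fnt, the linker histone needed for the condensation of spermatid nuclei, was at 109, 59.6, 104 and 159 CPM in polyA and at 27.0, 61.4 and 69.2 CPM in total RNA. Here too only ai_4 lay in the total RNA range, and the log2 difference was 0.89 (SE 0.27, adjusted p = 0.0093). Library ai_4 also had the lowest sum of late spermatid and sperm genes, 3977 CPM where the other CTRL polyA libraries had 9506 to 12839. A link of this sum to the histone values was not tested. Without ai_4 the log2 differences were 1.09 for H1fnt and 1.71 for H2afb1, the highest of all runs that left out 1 library. The lowest of these runs were 0.64 for H1fnt and 1.10 for H2afb1. H2afy2, which encodes a macroH2A with a large extra domain, had the opposite sign, at 15.4, 11.6, 14.1 and 12.8 CPM in polyA and 12.6, 21.2 and 36.6 CPM in total RNA. Its ranges overlapped and its log2 difference was -0.73 (SE 0.28, adjusted p = 0.030).

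Thus 4 of 4 histone genes passed the adjusted threshold of 0.05, 3 higher and 1 lower in polyA RNA, beside 71.7% of all 2360 features tested, 37.6% higher and 34% lower. A count this near the background says little of histone genes. Without CTRL library ai_8, 2 of the 4 passed, Hist2h2aa1 and H2afb1. When 1 library was left out, 1601 to 1711 of all features passed (2360 tested with all libraries). H2afy2 also missed the threshold without KG8-08 (-0.68), KG8-13 (-0.58) or ai_4 (-0.67), with TESA libraries in place of CTRL (-0.33, adjusted p = 0.63), where the other 3 genes passed, and without libraries 13 and 14 (-0.57), left out after seeing the data; over all alternatives run its adjusted p was 5.1e-07 to 0.63. Scaled by library totals alone all 4 passed, but H1fnt and H2afb1 then had negative differences. On that scale the median of all features was -2.31. Relative to that median the differences of H1fnt, H2afb1, H2afy2 and Hist2h2aa1 were 0.88, 1.39, -0.77 and 3.14. Over the alternatives other than leaving out single libraries, 3 or 4 histone genes passed, beside 1321 to 2012 of all features (2360 tested in the main run). RNA selection, time after injection, kit, sequencer, RNA input and the person who made the libraries all differ between the tables and cannot be told apart.

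**Figure D1:**
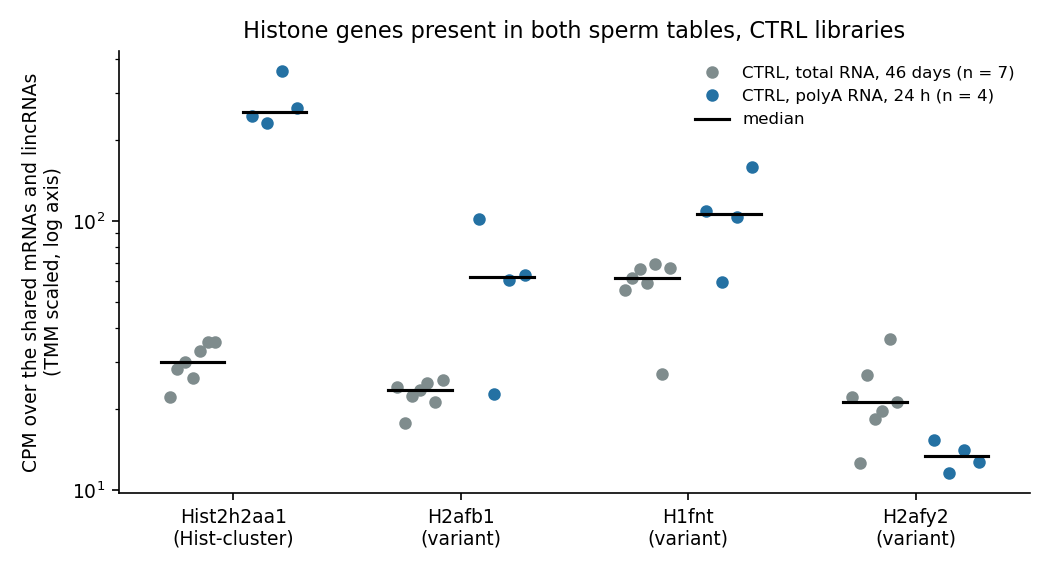
Level of the 4 histone genes present in both tables, in CPM over the shared mRNAs and lincRNAs on a log axis, with a point for each CTRL library and a line at the group median. Hist2h2aa1 is at 232 to 362 CPM in the 4 polyA libraries and at 22.3 to 35.6 CPM in the 7 total RNA libraries, while the ranges of the 3 variant genes overlap.

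A ratio within a library needs no scaling. Of the counts of these 4 genes, Hist2h2aa1 took 17.9%, 22.4% and 29.6% (lowest, median, highest) in CTRL total RNA and 52.0%, 71.2%, 67.0% and 52.9% in CTRL polyA libraries ai_2, ai_4, ai_6 and ai_8. In TESA it took 17.7%, 23.2% and 55.6% in total RNA and 64.8%, 67.3%, 60.2% and 76.4% in polyA libraries ai_1, ai_3, ai_5 and ai_7. The library sets did not overlap within CTRL or within TESA. TESA library KG8-12 stood apart from the other total RNA libraries, at 30 of 54 counts (exact 95% interval 41.4% to 69.1%), above CTRL polyA libraries ai_2 and ai_8. The shallowest library, KG8-02, rested on 3 of 15 counts (4.33% to 48.1%); these intervals cover counting error only. As a log2 ratio of Hist2h2aa1 to the 3 variant genes, the medians were -1.80 in CTRL and -1.73 in TESA total RNA, and 0.59 and 0.96 in polyA RNA.

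**Figure D2:**
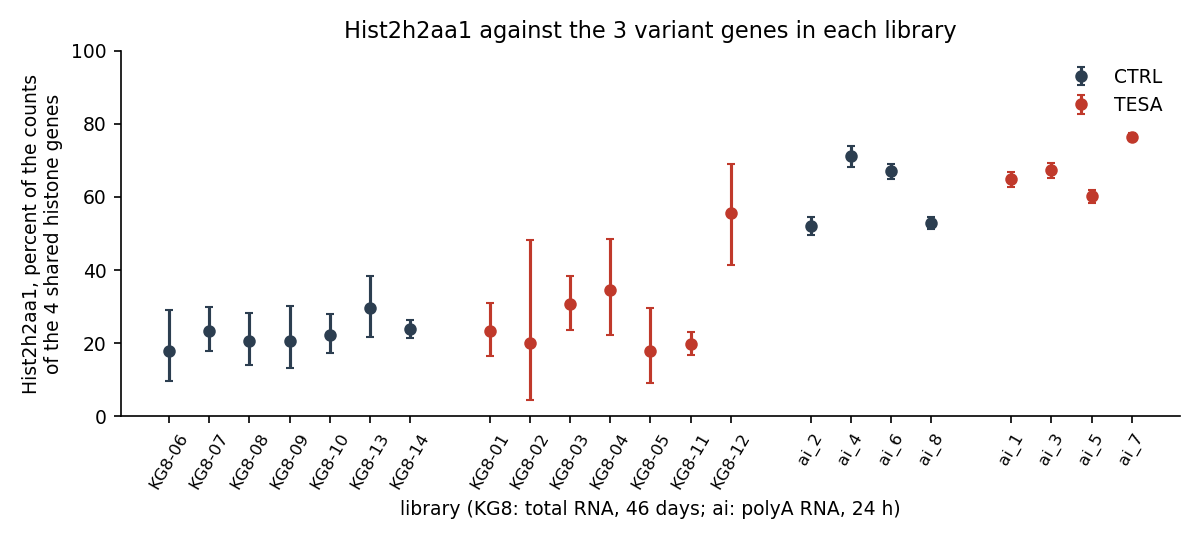
Percent of the counts of the 4 shared histone genes that fell on Hist2h2aa1 in each library, with exact 95% binomial intervals as bars. The total RNA libraries lie between 17.7% and 34.5% except KG8-12 at 55.6%, and the polyA libraries between 52.0% and 76.4%.

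Levels of different genes were compared per kilobase for the 31 of 44 genes that span at most 1500 bases in the RefSeq annotation, where introns can take little of the span. In CTRL polyA libraries Hist2h2aa1 was highest, at 96.1 to 132 CPM per kilobase, above each of the others in every library. H2afb1 followed at a median of 37.1 (15.1 to 77.8), then H1fnt at 18.9 (10.4 to 25.9), the linker histone gene Hist1h1c at 18.3 (14.6 to 22.5) and the H2A gene Hist3h2a at 8.48 (4.78 to 13.7 CPM per kilobase). The ranges of H2afb1, H1fnt and Hist1h1c overlapped, as did those of H1fnt and Hist3h2a. The symbol H2afb1 is a synonym of a pair of RefSeq genes, H2ab1 on chromosome X, used here, and the longer H2al2a, so its level per kilobase and its place in the order rest on that match. With the span of H2ab1, H2afb1 lay above H1fnt in each of the 22 libraries of both tables. By counts alone H1fnt was the higher in each of them, with log2 ratios of H1fnt to H2afb1 of 0.10 to 1.63 in polyA and 0.24 to 1.81 in total RNA. The order per kilobase thus comes from the spans, 348 bases for H2ab1 and 1326 for H1fnt. In CTRL total RNA the ranges over libraries overlapped, with medians of 6.99 CPM per kilobase for H2afb1, 5.84 for Hist2h2aa1 and 4.95 for H1fnt. Hist2h2aa1 lay above H2afb1 in 1 of these 7 libraries and above H1fnt in 6. Library by library, the level of Hist2h2aa1 per kilobase was 3.94 to 9.27 times that of H1fnt in CTRL polyA RNA. In CTRL total RNA it was 0.954 to 3.15 times (median 1.09), highest in KG8-13. The TESA ranges overlapped through KG8-12, at 5.503 to 11.02 times in polyA RNA and 0.937 to 5.504 times in total RNA.

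Across all 44 genes of the polyA table, replication-dependent genes held less of the histone counts than variant genes in every library, from 31.2% (CTRL ai_8) to 45.2% (CTRL ai_4). Hist2h2aa1 alone gave 34.7% to 56.0% of the replication-dependent counts. The 5 replication-dependent genes known also as polyadenylated mRNA summed to 26.9 to 59.7 CPM, where Hist2h2aa1 was at 53.5 to 97.2 CPM. With all 44 genes the log2 ratio of replication-dependent to variant counts had a median of -0.96 in CTRL and -0.74 in TESA, the opposite sign to that over the 4 shared genes. The ratio spanned -1.14 to -0.28 in CTRL, and the TESA range of -0.81 to -0.61 lay within it.

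By histone class, variant H3 genes took the most, 27.5% to 36.7% of the histone counts of a polyA library. Most of these fell on H3f3b, which with H3f3a encodes H3.3, the H3 laid down outside replication. The 7 H2A variant genes took 19.4% to 23.3%, the 4 replication-dependent H2A genes 14.4% to 22.5%, the 3 variant H1 genes 7.19% to 12.7%, the 6 H2B genes 5.09% to 10.2% and the 5 replication-dependent H1 genes 3.45% to 7.20%. The 11 H4 genes, none of them a variant, took 2.05% to 7.63%, and the 4 replication-dependent H3 genes 0.702% to 2.51%. These are shares of counts, which longer mRNAs raise.

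The replication-dependent genes were thinly covered. Of 30, 6 had more than 20 counts in every polyA library and 17 were at 0 in at least 1, whereas 12 of 14 variant genes passed 20 counts everywhere. Many Hist genes of a class are near-identical in sequence, so their reads can be split between copies and the single values are uncertain. Hist2h2aa2, the duplicate of Hist2h2aa1 on chromosome 3, was at 0 to 178 counts where Hist2h2aa1 was at 661 to 4236. H3f3c, a copy of the H3.3 genes, was listed at 0 in ai_2, ai_4 and ai_5 and at 128 to 150 counts in the other 5 libraries. Summed over copies the H4 genes gave 106, 321, 179 and 306 counts in ai_2, ai_4, ai_6 and ai_8.

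The histone share of mRNA and lincRNA counts sums 44 genes in polyA RNA and 4 in total RNA. In CTRL polyA RNA it was 366 to 680 CPM of mRNA and lincRNA counts (median 481), and in TESA polyA RNA 442 to 909 (median 554). In CTRL total RNA it was 31.5 to 245 CPM (median 70.8), and in TESA total RNA 8.38 to 196 (median 29.2). TESA and CTRL overlapped at both times. Over the 4 shared genes alone the share in polyA RNA was 85.8 to 163 CPM in CTRL and 115 to 252 in TESA, which overlaps the total RNA libraries of the same treatment. Over all counts of a library in place of mRNA and lincRNA counts, the medians were 363 (CTRL) and 429.6 CPM (TESA) in polyA RNA and 17.1 and 7.11 CPM in total RNA. The shares also move with the few most abundant features: without the 5 largest of each table the medians in total RNA were 290.5 CPM in CTRL and 305 in TESA.

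The next comparison asks whether the injections left a difference in sperm histone RNA 46 days later. H2afb1 was at 1.83, 2.43 and 2.91 CPM (lowest, median, highest) in 7 CTRL libraries and at 2.33, 3.65 and 4.35 CPM in 7 TESA libraries, from 13 to 228 and from 2 to 129.9 counts. Of the TESA libraries 5 lay above every CTRL library and the others within the CTRL range. The log2 difference was 0.47 (SE 0.19), with an unadjusted p of 0.0257 and an adjusted p of 0.75, so it failed the correction.

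Hist2h2aa1 was at 2.63, 3.24 and 4.03 CPM in CTRL and at 2.72, 3.68 and 11.9 CPM in TESA. The highest value was that of KG8-12, and the groups overlapped. Its log2 difference was 0.56 (SE 0.30, adjusted p = 0.92), and 0.18 without KG8-12. H1fnt was at 2.81, 6.56 and 7.76 CPM in CTRL and at 4.46, 6.93 and 8.72 CPM in TESA, and H2afy2 at 1.30, 2.41 and 3.82 CPM in CTRL and at 0, 2.01 and 3.49 CPM in TESA. Both overlapped between groups, with log2 differences of 0.05 (SE 0.23) and -0.44 (SE 0.39). That of H1fnt ranged from -0.091 to 0.11 when 1 library was left out, so its sign was not stable.

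By the quasi-likelihood test of edgeR 0 of 4 histone genes passed at 46 days, beside 0% of the 2264 features tested, and DESeq2 also called 0; the exact test of edgeR called 12 features, none of them a histone gene. At an unadjusted p under 0.05 there was 1 histone gene, H2afb1, beside 5.74% of all features. Without KG8-05 or without KG8-07 there was none, beside 71 to 165 of all features over the runs that left out 1 library (2264 tested with all libraries). In 0 of 4 genes did the groups not overlap, beside 0.0442% of the features tested. Scaled by library totals alone, the differences of H1fnt, H2afb1 and Hist2h2aa1 were negative, on a scale where the median of all features was -1.03. Relative to that median H2afb1 differed by 0.36, Hist2h2aa1 by 0.09, H1fnt by 0.05 and H2afy2 by -0.30.

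At 24 h after the last injection the same question was asked in polyA RNA. Hist2h2aa1 was at 65.3, 53.5, 73.3 and 56.8 CPM in CTRL libraries ai_2, ai_4, ai_6 and ai_8, and at 78.8, 61.2, 82.1 and 97.2 CPM in TESA libraries ai_1, ai_3, ai_5 and ai_7. Only ai_3 among the TESA libraries lay within the CTRL range. The log2 difference was 0.36 (SE 0.21), with an unadjusted p of 0.123. The gene for the H2A variant H2A.J, H2afj, had the lowest unadjusted p of the 30 histone genes tested, 0.0770, at 26.9, 16.0, 27.1 and 24.6 CPM in CTRL and 31.9, 23.1, 36.4 and 45.0 CPM in TESA. Its groups overlapped through ai_3, with a log2 difference of 0.53 (SE 0.27).

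The other genes described here overlapped between groups. H3f3b was at 87.9, 73.4, 97.5 and 105.9 CPM in CTRL and 90.6, 81.7, 83.4 and 93.2 CPM in TESA, and H3f3a at 20.3, 20.5, 36.0 and 53.8 CPM in CTRL and 38.9, 39.6, 40.4 and 47.4 CPM in TESA. The CTRL libraries of H3f3a fell on both sides of the TESA libraries. Hist1h2bc, an H2B gene that is also transcribed into polyadenylated mRNA, was at 10.1, 18.5, 25.4 and 31.1 CPM in CTRL and 28.2, 28.5, 26.1 and 29.2 CPM in TESA. Hist1h1c was at 10.6, 12.7, 13.9 and 16.3 CPM in CTRL and 10.5, 11.7, 11.2 and 12.0 CPM in TESA. Its CTRL libraries were mostly the higher ones, with a log2 difference of -0.24 (SE 0.24). H2afy, which encodes the other macroH2A, was at 2.26 CPM in CTRL library ai_2 and at 13.0 to 22.8 CPM in the other 7 libraries. H2afb1 was at 27.1, 5.26, 12.3 and 13.6 CPM in CTRL and 11.5, 6.53, 16.8 and 7.82 CPM in TESA, highest in ai_2; its log2 difference was -0.45 (SE 0.48) with ai_2 and 0.06 without it. The linker histone gene Hist1h1e was at 1.00 to 9.46 CPM and the H2B gene Hist2h2be at 2.42 to 7.69 CPM over the 8 libraries. H1fnt differed by 0.10 (SE 0.32), from -0.068 to 0.31 when 1 library was left out, and H2afy2 by -0.50 (SE 0.50).

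The testis linker histone gene Hist1h1t was at 0 in ai_1 and ai_2 and at most 1.08 CPM elsewhere. Hist4h4, an H4 gene outside the large clusters, was at 0 to 1.38 CPM. Both were too low to be tested. Over the 30 histone genes tested, 17 had positive and 13 negative log2 differences, from -1.32 (Hist1h4a) to 1.31 (Hist1h4c), both H4 genes with near-identical copies and named after their values were seen. Hist1h4c exceeded the floor of 20 counts in the 4 TESA libraries and in 0 of 4 CTRL libraries, so it was tested only through the group where it was high, and these counts and ranges over the genes tested are a description. The median was 0.10, beside -0.01 over all features.

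By edgeR 0 of 30 histone genes passed at 24 h, beside 0% of the 13032 features tested, and at an unadjusted p under 0.05 there were 0 of 30, beside 2.41% of all features. DESeq2 and the exact test of edgeR called 0 as well. The groups overlapped in all 30 genes, while 3.06% of the features tested had groups that did not. Among the 14 genes too low to test, the H2B gene Hist1h2bp had groups that did not overlap, at 0 to 0.678 CPM in TESA and 0.836 to 1.75 CPM in CTRL, from at most 36.3 counts; it was chosen after its values were seen. The standard error of the log2 difference was 0.19 to 1.60 over the 30 genes (median 0.48), so a count of 0 does not show that these genes did not differ. Leaving out 1 library brought H2afj and H1fx (without ai_3), H2afz (without ai_4) or H3f3a (without ai_8) under an unadjusted p of 0.05, and none of these under an adjusted one. Over all such runs 0 to 2 of 27 to 30 histone genes were under the unadjusted threshold, beside 211 to 467 of all features. With all libraries 13032 features were tested, and no percent is given for the single runs. With all libraries the linker histone variant gene H1fx differed by 0.58 (SE 0.32) and H2afz, the H2A.Z gene, by -0.73 (SE 0.39), both named after their values were seen. An interaction of treatment and time was tested in 2143 features, in a single model with TMM over the shared mRNAs and lincRNAs. Of 4 histone genes 0 passed, beside 0% of all, with differences from -0.59 (H2afb1) to 0.33 (H1fnt). On this other scale they need not equal the gaps between the separate log2 differences at 24 h and 46 days. At an unadjusted p under 0.05 there were 0 of 4, beside 5.46% of all.

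**Figure D3:**
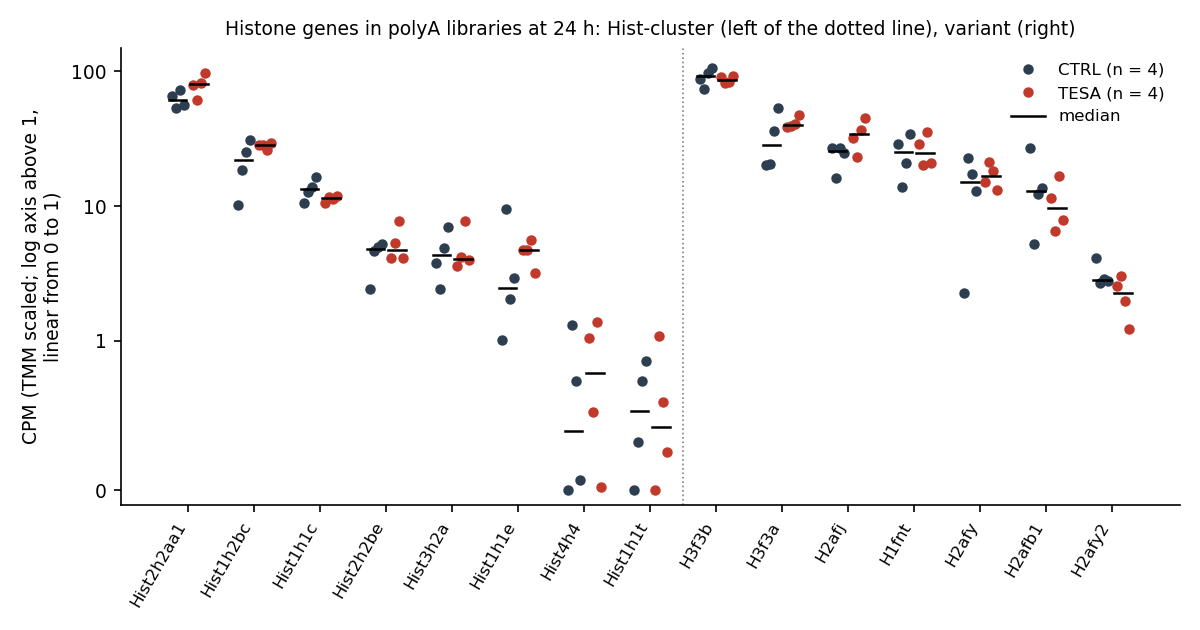
CPM, on an axis that is linear below 1 and logarithmic above, of the named histone genes in each polyA library at 24 h, with points for libraries and lines for group medians of 4 TESA and 4 CTRL libraries. The groups overlap in each gene, with Hist2h2aa1 at 53.5 to 73.3 CPM in CTRL and 61.2 to 97.2 CPM in TESA.

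Genes that act on histones and their mRNA gave context. Of 13 genes for the stem-loop 3′ end of histone mRNA 11 were listed at 24 h and 2 at 46 days, of 23 histone chaperones 22 and 8, and of 16 genes for histone eviction in spermatids 16 and 4. A list of 6 genes, the protamine genes Prm1, Prm2 and Prm3, the transition protein genes Tnp1 and Tnp2, and Hils1, a spermatid linker histone whose symbol falls outside the rule above, was complete at both times. None passed the adjusted threshold between TESA and CTRL; at an unadjusted p under 0.05 were the chaperones Anp32e and Dnajc9 at 24 h, 2 of 21 tested beside 2.41% of all features, and the eviction gene Psme4 at 46 days, 1 of 4 tested beside 5.74%. The summed level of the 22 chaperones at 24 h, led by Supt6, was 450.2 to 509 CPM in TESA and 544 to 571 CPM in CTRL. Supt6 alone had a mean of 190.1 CPM, 8 of the 21 chaperones tested had positive differences, and their median log2 difference was -0.09, beside -0.01 over all features. The summed level did not overlap between groups, alone among the 12 lists summed at 24 h, and was not tested. At 46 days the sum over the 8 chaperones listed there did overlap, at 226 to 388 CPM in TESA and 297 to 367 CPM in CTRL, and the TESA median of 356 was the higher, beside 336. Between polyA and total RNA 4 chaperones were higher and 2 lower of 8 tested, 1 eviction gene higher and 2 lower of 4, and 1 gene for the 3′ end higher and 1 lower of 2, beside 37.6% of all features higher and 34% lower. In the same comparison all 6 genes of the protamine, transition protein and Hils1 list and 10 of 12 late spermatid genes, with 4 genes in both lists, were higher in polyA at the adjusted threshold, 12 of 14 different genes. The median log2 differences of the lists were 1.79 and 1.85, and that of Hils1 was 1.39. The 3.17 of Hist2h2aa1 lay below that of the sperm genes Odf1 (3.50) and Smcp (4.48), which were singled out after their values were seen. Of the S phase genes, which mark cells that make replication-dependent histones, 17 of 20 were listed at 24 h, at 37.1 to 55.8 CPM in sum and with 9 at 0 in at least 1 library, and 0 of 20 at 46 days.

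Sequences upstream of the gene start were read for 3 of the 4 shared genes and for Hist2h2aa2, the duplicate of Hist2h2aa1. They are the 250 bases before the start that the RefSeq GRCm38.p6 promoter table gives, 5′ to 3′ on the strand of the gene, with CCAAT, or ATTGG on the other strand, in capitals. The window listed for H2afy2 lies inside the span of that gene and is not shown. The promoters of Hist2h2aa1 (chr3:96245247-96245496, plus strand) and Hist2h2aa2 (chr3:96240375-96240624, minus strand) were identical at 199 of 210 aligned bases (94.8%), with a shared run of 169 bases. Those of H1fnt (chr15:98257308-98257557, minus strand) and of H2ab1, matched to H2afb1 with the doubt given above (chrX:117014507-117014756, plus strand), follow.

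Hist2h2aa1: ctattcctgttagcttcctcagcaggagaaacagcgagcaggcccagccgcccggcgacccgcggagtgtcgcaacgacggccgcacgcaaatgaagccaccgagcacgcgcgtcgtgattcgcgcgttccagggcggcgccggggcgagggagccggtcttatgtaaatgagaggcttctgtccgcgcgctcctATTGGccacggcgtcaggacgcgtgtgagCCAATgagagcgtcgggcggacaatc

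Hist2h2aa2: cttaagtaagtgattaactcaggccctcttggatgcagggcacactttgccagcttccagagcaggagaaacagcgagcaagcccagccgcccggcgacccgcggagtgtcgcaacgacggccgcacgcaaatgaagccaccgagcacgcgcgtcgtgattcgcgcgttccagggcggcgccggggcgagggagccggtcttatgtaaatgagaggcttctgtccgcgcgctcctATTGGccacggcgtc

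H1fnt: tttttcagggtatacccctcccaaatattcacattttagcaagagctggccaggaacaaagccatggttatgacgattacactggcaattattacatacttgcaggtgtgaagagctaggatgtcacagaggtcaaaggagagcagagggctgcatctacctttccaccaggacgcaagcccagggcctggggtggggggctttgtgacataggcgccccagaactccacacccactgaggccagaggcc

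H2afb1: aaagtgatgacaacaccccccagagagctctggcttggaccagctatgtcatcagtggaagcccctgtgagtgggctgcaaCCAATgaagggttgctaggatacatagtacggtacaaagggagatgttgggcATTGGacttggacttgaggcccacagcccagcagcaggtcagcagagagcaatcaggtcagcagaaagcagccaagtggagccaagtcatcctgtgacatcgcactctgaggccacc

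Both strands of the promoter windows of 38 histone genes were searched for 4 motifs; in 6 of the 38, H2afy2 and H3f3b among them, the start given lies inside the RefSeq gene span. CCAAT was in 18 of 26 replication-dependent and 6 of 12 variant promoters, beside 34.5% of all 27025 promoters. TATAAA was in 11 of 26 and 1 of 12, beside 13.0%. ATGCAAAT, the octamer, was in 3 of 26 and 1 of 12, beside 1.61%, and TGACGTCA in 2 of 26 and 0 of 12, beside 1.62%. The only variant window with TATAAA or with ATGCAAAT was that of H3f3b, whose start lies 1535 bases inside the gene span. A match is a description and does not show that a factor binds.

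The limits are these. RNA selection, time, kit, sequencer, RNA input and library maker separate the library sets together. The total RNA table lists only features above 20 counts in at least 3 libraries, so histone genes missing from it may have been present below that level, and a single replication-dependent gene stands for its class there. Counts at 46 days were low and TMM factors ranged from 0.0981 to 8.15. Reads of near-identical copies were divided by estimation. Gene spans replaced transcript lengths. Protein, chromatin and the ends of the histone mRNAs were not analysed here.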

How the data were processed

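Sperm libraries were grouped by the labels as TESA or CTRL at each time. Per the labels, the authors estimated counts per feature with Salmon against GENCODE transcripts, piRNA precursors and repeat families; the deposited values are estimated counts, summed per feature. Here they were rounded and tested with edgeR 4.0.16 (quasi-likelihood, TMM over all features, a floor of 20 counts to be exceeded in 6 libraries (46 days) or in 4 (other tests of groups), Benjamini-Hochberg over mRNA and lincRNA features, threshold 0.05) in R 4.3.3. DESeq2 1.42.0, limma 3.58.1, other scalings and filters, and leaving out each library were alternatives. PolyA and total RNA were compared, and the interaction was tested, over the mRNAs and lincRNAs in both tables, with TMM over these features. Shares have exact Clopper-Pearson intervals at 95%. Named genes were set by rule: the genes of the total RNA table; in the polyA table the 6 replication-dependent and 6 variant genes with the highest mean CPM in CTRL; testis genes; genes known also as polyadenylated mRNA; and genes with an unadjusted p under 0.05 in a comparison with all its libraries. Tests were checked on simulated data, with changes larger than that of any histone gene tested between TESA and CTRL. At the spread of its own libraries the 24 h test found few of them. The 46-day and polyA against total RNA tests, at theirs, found nearly all. Every simulated library had the same mean composition, unlike the real libraries. The check therefore does not show the power for thinly counted histone genes at 46 days. Members and lists were chosen with earlier results of these data known. Serum RNA was not used here.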

Additional observations from a re-analysis of the deposited data

Results flagged for a closer look

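Of 56 sets examined, each of a single quantity in a group of libraries, 6 held a library far from the others by Dixon's test. Chance gives about 1 in 20 independent sets, and sets of related quantities, such as the histone share and its variant part, are not independent. The causes were not tested.

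At 46 days Hist2h2aa1 was at 11.9 CPM in TESA library KG8-12, from 30 counts, and at 2.72 to 5.31 CPM in the other TESA libraries. KG8-12 also had the lowest TESA sum of late spermatid and sperm genes, 498 CPM beside 631 to 1031. H1fnt was at 2.81 CPM in CTRL library KG8-13 and at 5.93 to 7.76 CPM in the other CTRL libraries. KG8-13 also had the lowest CTRL sum of late spermatid and sperm genes, 427 CPM beside 666 to 971. The histone share of mRNA and lincRNA counts was 196 CPM in TESA library KG8-11 and 8.38 to 67.7 in the other TESA libraries. The share of variant histone genes alone was 157 CPM in KG8-11 and 6.70 to 49.8 in the others. Without the 5 most abundant features the histone share was 334 CPM in KG8-11 and 237 to 327 in the others. These 5 features took 41.4% of the mRNA and lincRNA counts in KG8-11 and 78.7% to 97.2% in the others.

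At 24 h H2afy2 was at 4.09 CPM in CTRL library ai_2 and at 2.67 to 2.86 CPM in the other CTRL libraries. Hist3h2a was at 7.69 CPM in TESA library ai_5 and at 3.58 to 4.196 CPM in the other TESA libraries.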

How the results depend on the processing

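No histone gene passed between TESA and CTRL, or in the test of the difference between times, under any alternative run. Scaled by library totals alone, the 46-day log2 differences were -0.98 for H1fnt, -0.67 for H2afb1 and -0.93 for Hist2h2aa1, and those between polyA and total RNA -1.44 for H1fnt and -0.93 for H2afb1; the median of all features moved to -1.03 and -2.31, and to 0.21 at 24 h. H2afy2 between polyA and total RNA was at -0.57 without libraries 13 and 14, past the threshold no longer. With libraries 1 to 10 alone H1fnt was at -0.12 at 46 days, the only histone gene tested there.

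Leaving out 1 library at a time, H1fnt ranged from -0.091 to 0.11 at 46 days and from -0.068 to 0.31 at 24 h, and H2afb1 from -0.73 to 0.056 at 24 h. Between polyA and total RNA 2 to 4 histone genes passed, beside 1601 to 1711 of all features (2360 tested with all libraries).

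In alternatives chosen after seeing the data, the histone share without the 5 most abundant features had medians of 1381 (CTRL) and 1504 (TESA) CPM at 24 h, and 290.5 and 305 at 46 days. The log2 ratio of replication-dependent to variant counts at 24 h had medians of -1.29 (CTRL) and -1.25 (TESA) without the most abundant gene of each kind. With all 44 genes, an alternative not chosen that way, they were -0.96 and -0.74. Leaving out 1 library, the ratio over the 4 shared genes ranged from 0.16 to 1.02 (CTRL) and 0.88 to 1.04 (TESA) at 24 h, and from -1.88 to -1.75 and -1.87 to -1.47 at 46 days; the share ranged from 389 to 572 and 499 to 609 at 24 h, and from 59.6 to 85.6 and 27.6 to 47.0 at 46 days. Apart from scaling and fewer libraries, the cause was not tested. The ratio over the shared genes without the most abundant gene could not be run, as no replication-dependent gene is left. No paired analysis was possible because the groups compared share no replicate numbers.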
